A study of Xenopus laevis with 20 samples.

Results

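Ventral explants of late gastrula *Xenopus laevis* embryos that received *noggin* plasmid (**Nog**) were compared with ventral explants that did not (**Ven**). The comparison comprises 4 of the 20 arrays of the series, chosen by their titles: the **Nog** and **Ven** samples of stage 11.5 in clutch 3 and in clutch 4. All embryos were injected ventrally at the 4-cell stage, **Ven** with *eGFP* mRNA alone and **Nog** with *eGFP* mRNA and *noggin* plasmid. Because **Ven** received no plasmid, an effect of plasmid DNA cannot be told apart from one of Noggin in this comparison. Embryos with correctly placed eGFP fluorescence were kept and bisected at stage 11.5 into a ventral and a dorsal explant. Explant here means a piece of embryo frozen right after cutting. As morphology does not reliably show the axis at this stage, eGFP fluorescence guided the cut. Each sample was the RNA of 10 pooled explants. The plasmid is transcribed only once the embryo's own transcription has begun. The same 2 clutches also gave ventral explants injected with *dkk-1* plasmid (**Dkk**) or with both plasmids (**Nog+Dkk**), and the dorsal explants of the *eGFP* embryos (**Dor**), and 2 other clutches gave the same 5 conditions at stage 10. A ventral explant holds all germ layers, so injected and uninjected cells were measured together, and fewer cells of a type cannot be told apart from less RNA per cell.

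Bone morphogenetic proteins (BMPs) are secreted ligands that bind paired serine/threonine kinase receptors and act through Smad proteins. In the gastrula, high BMP activity specifies ventral mesoderm and epidermis, and the Spemann organizer on the dorsal side secretes proteins that keep BMPs from their receptors. Noggin is one of these proteins. Placed on the ventral side it can induce a second trunk, whereas induction of a head also requires inhibitors of Wnt signalling such as Dkk-1.

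Levels are given as log2 of the RMA intensity of a probe set, and changes as the **Nog** minus **Ven** difference on that scale, averaged over both clutches, with the standard error (SE) of the limma fit. A probe set was called when its p-value, adjusted over all probe sets, was below 0.1. The number of arrays limits the precision. The explants carried the markers of their labels: the median level of 14 organizer marker genes was 7.15 and 7.43 in the **Ven** arrays and 8.87 and 8.92 in the **Dor** arrays, and that of 11 ventral marker genes was 8.18 in both **Ven** arrays and 7.62 and 7.73 in the **Dor** arrays. In **Nog** these medians were 7.41 and 7.72 for the organizer markers and 8.02 and 8.01 for the ventral markers, between **Ven** and **Dor** in both clutches. Taken gene by gene, the median change against **Ven** was 0.13 in **Nog** and 1.61 in **Dor** for the organizer markers. For the ventral markers it was -0.48 and -0.86. The control probe set for eGFP lay between 7.3 and 7.65 on all 20 arrays, **Dor** included, and so did not separate ventral from dorsal explants.

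Of the 15491 probe sets tested, 643 (4.15%) were called higher and 685 (4.42%) lower in **Nog**. The values of **Nog** and **Ven** did not overlap in 530 (82.4%) of those called higher and in 529 (77.2%) of those called lower, beside 11.4% and 16.9% of all probe sets. By rank products, a rank-based test, at a false discovery rate of 10%, 62 probe sets (0.4%) were higher and 10 (0.0646%) lower, and all of these were among the limma calls. The 2 clutches differed in what moved. Across all probe sets the change in clutch 3 and the change in clutch 4 had a correlation of 0.161, as a description, and the SD of the changes was 0.279 and 0.295. In fits with only 1 of the clutches, which take the spread from stage 10, clutch 4 alone gave 927 probe sets higher (5.98%) and 462 lower (2.98%), and clutch 3 alone 548 (3.54%) and 728 (4.7%). Clutch 4 alone shared 441 higher and 211 lower calls with the fit of both, and clutch 3 alone 276 and 321.

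**Figure D1:**
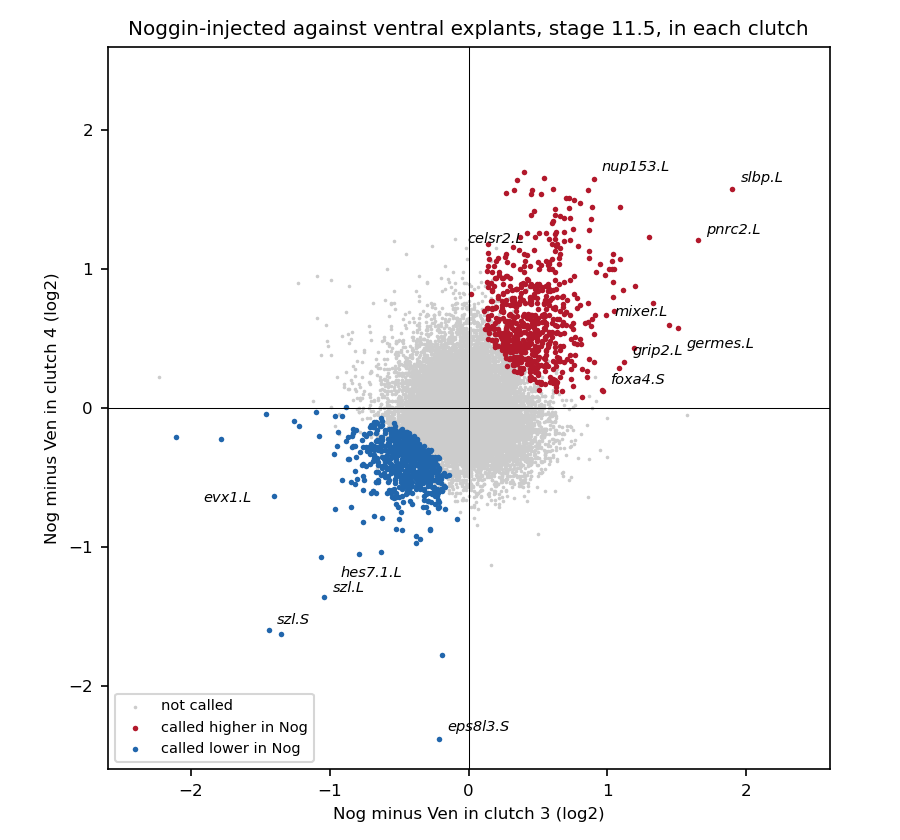
Change of each of 15491 probe sets between **Nog** and **Ven** (log2) in clutch 3 on the horizontal axis and in clutch 4 on the vertical axis, with 643 probe sets called higher in red and 685 called lower in blue. Both *szl* homeologs fell in both clutches, whereas *eps8l3.S* fell mainly in clutch 4 and *foxa4.S* rose mainly in clutch 3.

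The injected gene was measured by 1 probe set for *nog.L*, at 5.16 (clutch 3) and 5.61 (clutch 4) in **Nog** and 4.35 and 5.15 in **Ven**. **Nog** was above **Ven** within each clutch. The change of 0.63 (SE 0.115, adjusted p = 0.00522) was 0.46 in clutch 4 alone, where it was no longer called.

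Of the secreted BMP antagonists and modulators, both homeologs of *szl* and *twsg1.L* fell. *Szl.S*, which encodes Sizzled, a secreted inhibitor of the proteases that cleave Chordin and itself a BMP-induced ventral gene, was at 4.94 and 4.34 in **Nog** and at 6.38 and 5.94 in **Ven**. All **Nog** values were below all **Ven** values, and the fall was 2.87-fold (log2 change -1.52, SE 0.343, adjusted p = 0.0166). Its homeolog *szl.L* read 4.77 and 4.29 against 5.81 and 5.65 (-1.20, SE 0.277, adjusted p = 0.0189), again without overlap. Both *szl* probe sets were among the dimmest 25% by mean intensity over all arrays. *Twsg1.L*, which encodes the BMP-binding protein Twisted gastrulation, read 9.06 and 8.88 in **Nog** and 9.39 and 9.59 in **Ven**. It fell by 0.51 (adjusted p = 0.0148), but by 0.33 in clutch 3 alone, where it was not called. Of the 17 measured antagonists and modulators, each read by its brightest probe set, these 3 fell and *nog.L* rose (17.6% and 5.88% beside 4.42% and 4.15% of all probe sets), with a median of -0.04. Above **Ven** were 10 of the 17 in clutch 3 (median 0.04) and 3 in clutch 4 (median -0.17). Over all 15491 probe sets 7166 and 6775 were above **Ven**, with medians of -0.02 and -0.04. A dimmer probe set of *bmp1.S*, which encodes a Chordin-cleaving protease, was called higher (0.46, adjusted p = 0.0130), whereas the brightest was at -0.02. *Chrd.1.S*, which encodes Chordin, had a change of 0.52 (adjusted p = 0.252) and *fst.L*, which encodes Follistatin, of 0.00 (adjusted p = 0.994).

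Among the 21 ligand, receptor and Smad genes, 5 rose and 1 fell, 23.8% and 4.76% beside 4.15% and 4.42% of all probe sets. In clutch 4 alone 2 were called higher (9.52% beside 5.98%), and in clutch 3 alone 4 (19% beside 3.54%). The gene that fell was *bmp4.S*, which encodes a ventral BMP ligand, at 6.48 and 6.41 in **Nog** and 6.98 and 7.05 in **Ven**. The groups did not overlap (-0.57, SE 0.129, adjusted p = 0.0166). *Smad1.L*, the transducer of BMP signals, read 8.75 and 9.0 in **Nog** and 8.05 and 8.40 in **Ven**, also without overlap, and rose by 0.65 (SE 0.138, adjusted p = 0.0114). *Smurf1.L*, a ubiquitin ligase that marks Smad proteins for degradation, read 7.87 and 8.30 against 7.37 and 7.69 and rose by 0.56 (SE 0.127, adjusted p = 0.0167). The 3 other genes that rose encode receptors: *acvr1.S* (0.37), *acvr2b.L* (0.38) and *bmpr1a.S* (0.40). Their homeologs *acvr1.L*, *acvr2b.S* and *bmpr1a.L*, and *smad1.S*, are on the list too and were not called by their brightest probe sets. The ligand genes *bmp2.L* (0.22, adjusted p = 0.230) and *bmp7.1.L* (-0.06, adjusted p = 0.915) were not called.

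Of the 30 measured BMP targets and ventral genes, none rose and 5 fell (16.7% beside 4.42% of all probe sets). At an unadjusted p below 0.05 in limma 1 was higher and 11 were lower, and the median change was -0.24 beside -0.03 over all probe sets. Besides *szl.L*, *szl.S* and *bmp4.S*, which are on this list too, the genes that fell were *evx1.L* and *ventx1.1.L*. The study names *sizzled*, *frzb3* and *Xhox3* (*evx1*) as repressed by Noggin on these arrays. The list is thus not independent of these samples. *Evx1.L*, a homeobox gene of the ventral and posterior mesoderm, was at 6.28 and 6.48 in **Nog** and 7.68 and 7.11 in **Ven**. It fell 2.02-fold (-1.01, SE 0.172, adjusted p = 0.00415) without overlap. *Ventx1.1.L*, a homeobox repressor of organizer genes that BMP induces, was at 8.32 and 8.22 in **Nog** and 9.07 and 8.74 in **Ven**. It fell by 0.63 (SE 0.171, adjusted p = 0.0400), and by 0.52 in clutch 4 alone, where it was not called. A second, dimmer probe set of the gene was at -0.14 (adjusted p = 0.560). Further members had negative changes that were not called, among them the BMP pseudoreceptor gene *bambi.L* (-0.54, adjusted p = 0.191), *msx1.L* (-0.48, adjusted p = 0.256) and *ventx2.1.S* (-0.33, adjusted p = 0.106). The inhibitory Smads, which are direct feedback targets, were close to no change, with *smad6.L* at -0.13 and *smad7.L* at -0.07 by its brightest probe set. In all, 7 of the 30 genes were above **Ven** in clutch 3 and 8 in clutch 4, beside 7166 and 6775 of all 15491 probe sets. The tilt was thus present in both clutches.

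**Figure D2:**
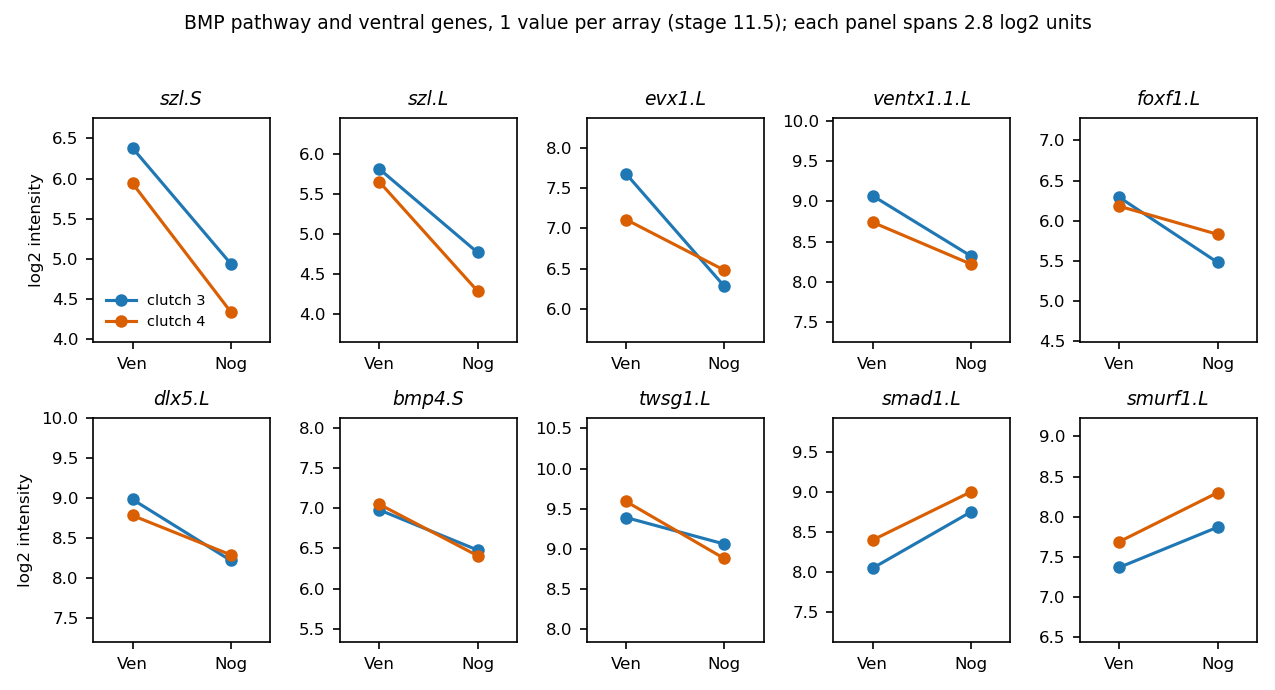
Log2 intensity of 10 BMP pathway and ventral genes on the **Ven** and **Nog** arrays of stage 11.5, with a line for each clutch. The first 8 genes are lower in **Nog** in both clutches, and *smad1.L* and *smurf1.L* are higher in both.

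Genes of the tissues that BMP specifies moved less evenly. In the list of 27 ventral mesoderm and blood genes, of which 19 were above **Ven** in clutch 3 and 6 in clutch 4, only *foxf1.L*, a forkhead gene of the lateral plate, was called (3.7% beside 4.42% of all probe sets), at 5.48 and 5.83 in **Nog** and 6.29 and 6.18 in **Ven**. It fell by 0.58 (adjusted p = 0.0245), and by 0.35 in clutch 4 alone, where it was not called. Of 39 epidermal and non-neural ectoderm genes 2 fell (5.13%, close to the 4.42% of all probe sets) and none rose, beside 7 and 1 at an unadjusted p below 0.05 in limma. They were *dlx5.L*, a homeobox gene of the neural plate border, with 8.22 and 8.29 against 8.98 and 8.78 (-0.62, adjusted p = 0.0110), and *tfap2a.L*, an epidermal transcription factor gene (-0.37, adjusted p = 0.0847). In clutch 3 alone 8 of the 39 were called lower (20.5% beside 4.7% of all probe sets), and in clutch 4 alone 2 were called lower and 2 higher. The epidermal keratin gene *krt12.4.L* shows the split, with 8.85 against 9.63 in clutch 3 and 8.95 against 8.88 in clutch 4 (adjusted p = 0.448).

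Of 36 organizer genes, 6 rose and none fell (16.7% beside 4.15%), and 7 and 1 had an unadjusted p below 0.05 in limma. The 6 were *nog.L*, the injected gene, *lrig3.S*, *lhx1.L*, *frzb.L*, *otx2.L* and *foxa4.S*. This list is not independent of these samples either, as the study drew *lrig3.S* (there *LRIG2*) from its own organizer cluster. It also holds *rasl11b.L*, which the study places in its cluster of ventral, lateral and posterior genes. *Lhx1.L*, a homeobox gene needed for head formation, read 7.22 and 7.51 in **Nog** and 6.32 and 7.18 in **Ven**, so both **Nog** values lay above both **Ven** values, and rose by 0.62 (SE 0.137, adjusted p = 0.0151). *Lrig3.S*, which encodes a membrane protein with leucine-rich repeats, read 6.50 and 6.38 against 5.42 and 6.09 (0.69, SE 0.177, adjusted p = 0.0317). The other of 2 *lrig3.S* probe sets was not called. *Frzb.L*, a secreted Wnt antagonist gene, read 8.77 and 9.28 against 7.90 and 8.93 (0.61, SE 0.160, adjusted p = 0.0357), and here the groups overlapped. *Foxa4.S*, a forkhead gene of the notochord and floor plate, read 8.57 and 8.43 against 7.61 and 8.30 (0.55, SE 0.156, adjusted p = 0.0514).

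Most of these organizer gene changes came mainly from clutch 3. In clutch 4 alone *foxa4.S* was at 0.13, *lrig3.S* at 0.29, *lhx1.L* at 0.33 and *frzb.L* at 0.35. In clutch 3 alone they were at 0.96, 1.09, 0.91 and 0.87. The change of *otx2.L* was nearly the same in both, 0.53 in clutch 4 and 0.59 in clutch 3. Of the 36 genes, 16 were above **Ven** in clutch 4 (median -0.08) and 28 in clutch 3 (median 0.18). Over all 15491 probe sets it was 6775 and 7166. The classical organizer gene *gsc.L*, a homeobox gene, was at 5.11 and 5.06 in **Nog** and 5.58 and 5.14 in **Ven** by the probe set that separated **Dor** (-0.27, adjusted p = 0.449). For *otx2.L* the probe set called in **Nog** had a change of 0.56 (SE 0.168, adjusted p = 0.0640), and its second probe set one of 0.01 (adjusted p = 0.982).

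The 10 trunk organizer genes are a list drawn in part from the study and thus not independent of these samples. Its member *pnhd.L* was repressed by Noggin+Dkk-1 and by Dkk-1 in the study's staining of embryos. By the brightest probe set of each gene, *foxa4.S* alone was called (10% beside 4.15% of all probe sets). The median was 0.24 beside -0.03 over all probe sets, with 0.32 in clutch 3 and 0.03 in clutch 4. *Foxd4l1.1.S*, a forkhead gene of the early neural ectoderm, had a change of 1.00 in clutch 3 and -0.08 in clutch 4 (adjusted p = 0.168). *Foxd3.S* stood at 6.84 against 5.84 in clutch 3 and at 5.82 against 6.17 in clutch 4 (adjusted p = 0.487).

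Neural plate genes did not rise together. Of 44 measured, *zic2.L*, a zinc finger gene of the neural plate, rose (1 gene, 2.27% beside 4.15% of all probe sets), with 8.99 and 9.33 in **Nog** and 8.44 and 8.98 in **Ven** (0.45, adjusted p = 0.0430), and *otx1.L* fell (-0.46, adjusted p = 0.0572), 2.27% beside 4.42%. The pan-neural genes *sox2.L* (0.19, adjusted p = 0.493) and *sox3.L* (0.11, adjusted p = 0.769) were not called. In clutch 3 alone 7 of the 44 were called higher (15.9% beside 3.54% of all probe sets) and 31 were above **Ven**. In clutch 4 alone 1 was called higher and 1 lower, and 16 were above **Ven**.

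**Figure D3:**
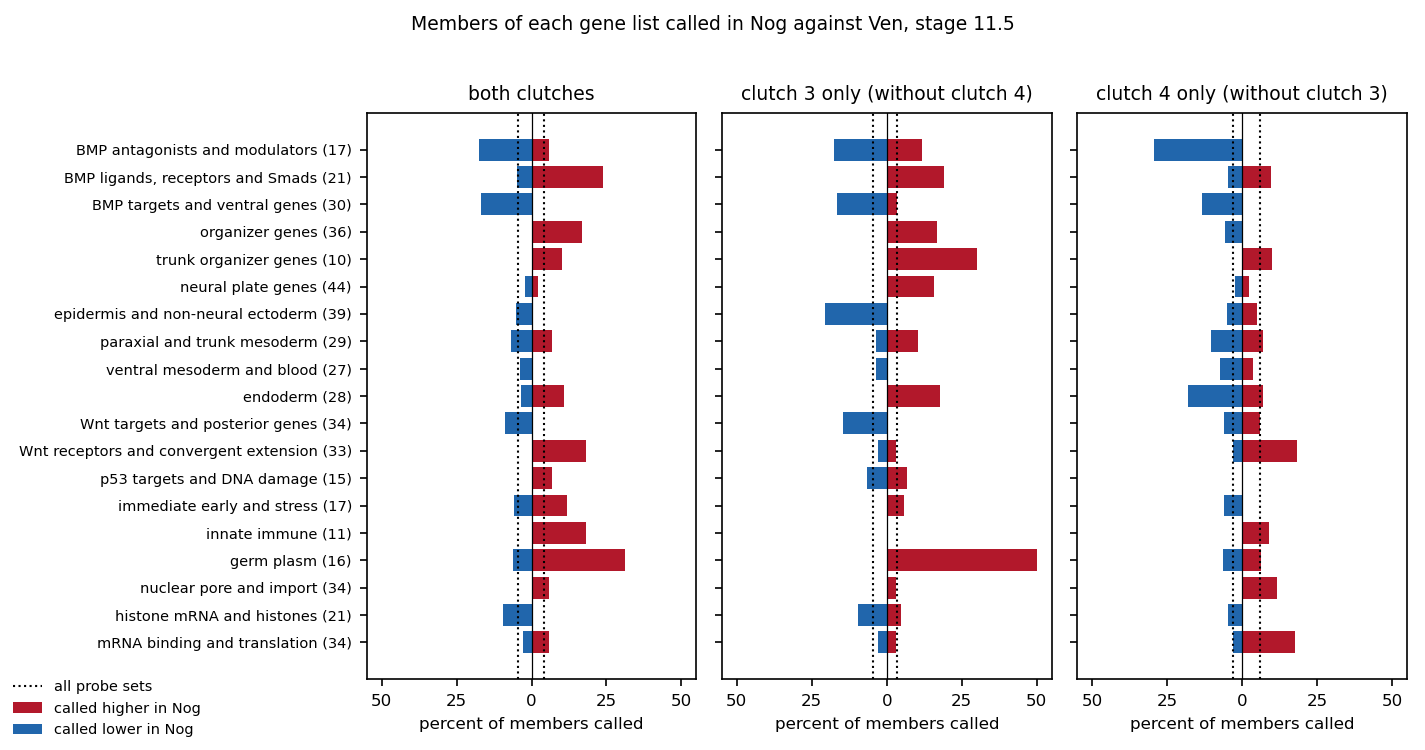
Percent of the members of 19 gene lists called higher (red, to the right) or lower (blue, to the left) in **Nog** against **Ven**, with both clutches and with either clutch left out, with the number of members in parentheses and the share of all probe sets as dotted lines. The BMP targets and ventral genes lean to the left in all 3 panels, with 5 of the 30 lower when both clutches are used. The organizer, neural plate, epidermis and germ plasm lists differ between the clutches.

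Genes of Wnt reception and of convergent extension, the cell movement that lengthens the axis under control of the planar cell polarity pathway, rose in 6 of 33 cases (18.2% beside 4.15%), and none fell, beside 10 and 0 at an unadjusted p below 0.05 in limma. *Celsr2.L*, a cadherin of the planar polarity core, read 6.54 and 7.56 in **Nog** and 6.07 and 6.42 in **Ven** (0.80, SE 0.144, adjusted p = 0.00500). Only this 1 of its 2 probe sets was called. *Daam1.S*, a formin that links Dishevelled to the cytoskeleton, read 7.49 and 8.21 against 6.99 and 7.16 (0.77, SE 0.165, adjusted p = 0.0120). For both genes the **Nog** values lay above all **Ven** values. The core component genes *vangl2.L* (0.54), *prickle1.L* (0.39) and *prickle1.S* (0.46) and the Wnt co-receptor gene *lrp6.L* (0.42) rose less. The list median was 0.05 in clutch 4 and 0.11 in clutch 3, but more calls came from clutch 4: the list had 6 members called higher and 1 lower in that clutch alone (18.2% higher beside 5.98% of all probe sets), and 1 higher and 1 lower in clutch 3 alone (3.03% higher beside 3.54%), where *celsr2.L* was at 0.47, *daam1.S* at 0.50 and *vangl2.L* at 0.42.

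*Fzd7.L*, which encodes the Frizzled receptor required for mesoderm movement and tissue separation at gastrulation, had 5 probe sets, and 4 were called higher, with changes of 0.39, 1.04, 1.05 and 1.27. The probe set with the largest change read 10.02 and 10.29 in **Nog** and 8.72 and 9.06 in **Ven**, a 2.40-fold rise without overlap (SE 0.193, adjusted p = 0.00248). The brightest probe set read 11.20 and 11.16 against 10.89 and 11.11 and was not called (0.18, adjusted p = 0.382). The probe sets of this gene thus shared a direction but not a size.

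Of 29 paraxial and trunk mesoderm genes 2 rose and 2 fell (6.9% each), and of 28 endoderm genes 3 rose and 1 fell (10.7% and 3.57%), beside 4.15% and 4.42% of all probe sets. *Hes7.1.L*, a hairy-related transcriptional repressor gene of the gastrula mesoderm, read 5.86 and 5.64 in **Nog** and 6.65 and 6.69 in **Ven** by 1 of its 2 probe sets, and fell by 0.92 (SE 0.196, adjusted p = 0.0114) without overlap. *Msgn1.L*, a basic helix-loop-helix gene of presomitic mesoderm, fell by 0.46 (adjusted p = 0.0699), and by 0.21 in clutch 3 alone. *Mixer.L*, a homeobox gene of the mesendoderm, read 10.45 and 10.61 against 9.01 and 10.01 and rose 2.02-fold (1.02, SE 0.190, adjusted p = 0.00599), while its homeolog *mixer.S* stayed at 0.04 (adjusted p = 0.928). The endoderm genes *gata4.S* (0.67, adjusted p = 0.0519) and *gata6.S* (0.42, adjusted p = 0.0893) also rose, and *bix1.3.S* fell (-0.45, adjusted p = 0.0440). As a list the 28 endoderm genes turned with the clutch: 25 were above **Ven** in clutch 3, with 5 called higher, and 11 in clutch 4, with 5 called lower and 2 higher. The 5 called higher in clutch 3 alone were 17.9% beside 3.54% of all probe sets, and the 5 called lower in clutch 4 alone 17.9% beside 2.98%.

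Germ plasm transcripts are stored in the vegetal egg cytoplasm and inherited by future germ cells. Of 16 genes on a list of these, 5 were higher (31.2% beside 4.15%). The list also holds *vegt.L*, *vegt.S*, *gdf1.S*, *otx1.L* and *wnt11b.L*, which are on lists of other tissues or pathways too. *Germes.L*, which encodes a germ plasm protein, read 6.52 and 5.41 in **Nog** and 5.01 and 4.83 in **Ven** (1.04, SE 0.275, adjusted p = 0.0367). *Pgat.L*, a germ plasm-associated transcript, read 9.19 and 9.32 against 8.0 and 8.89 (0.81, SE 0.137, adjusted p = 0.00409), and *grip2.L*, which encodes a scaffold protein of primordial germ cells, read 7.56 and 6.81 against 6.44 and 6.48 (0.73, SE 0.146, adjusted p = 0.00856). In all 3 genes both **Nog** values were above both **Ven** values, but the rise was larger in clutch 3. The median of the list was 0.56 in clutch 3 and 0.07 in clutch 4, beside -0.02 and -0.04 over all probe sets. Of the 16 members, 13 were above **Ven** in clutch 3 and 11 in clutch 4. The member that fell was *otx1.L*, a homeobox gene that is on the neural plate list too. *Vegt.S*, a vegetal maternal T-box gene, was not called (0.67 in clutch 3 and 0.06 in clutch 4, adjusted p = 0.146).

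Of 34 Wnt targets and posterior genes none rose and 3 fell (8.82% beside 4.42%), beside 0 and 5 at an unadjusted p below 0.05 in limma: *hoxa7.L* (-0.52, adjusted p = 0.0125) and both homeologs of *cyp26a1*, the gene of a retinoic acid-degrading enzyme (-0.39 and -0.42). *Hoxa7.L* was at -0.28 in clutch 4 alone and *cyp26a1.S* at -0.22 in clutch 3 alone, and neither was then called. The direct Wnt target *axin2.L* was at -0.02. In clutch 3 alone 5 of the list were called lower and none higher (14.7% beside 4.7% of all probe sets), with a median of -0.18, and in clutch 4 alone 2 were lower and 2 higher, with a median of -0.04.

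By the rule of size the named increases also included *slbp.L*, *pnrc2.L*, *nup153.L*, *eif3a.S* and *pabpc1.S*. *Slbp.L*, which encodes the histone stem-loop binding protein, read 9.74 and 10.23 in **Nog** and 7.84 and 8.65 in **Ven** by 1 probe set, and *pnrc2.L*, a gene of mRNA decay, read 8.67 and 10.82 against 7.02 and 9.61 (1.43, SE 0.233, adjusted p = 0.00377). *Nup153.L*, which encodes a nuclear pore protein, read 7.02 and 8.05 against 6.12 and 6.40 (1.28, SE 0.206, adjusted p = 0.00366). *Eif3a.S*, a translation initiation factor gene, rose by 1.15 and *pabpc1.S*, the gene of a poly(A)-binding protein, by 1.08 (adjusted p = 0.00457 and 0.00487). Both probe sets of *eif3a.S* were called, with changes of 1.15 and 1.02, but the second, brighter probe sets of *slbp.L*, *nup153.L* and *pabpc1.S* were not. The brighter probe set of *slbp.L* read 11.40 and 11.31 against 11.22 and 10.98 (0.25, adjusted p = 0.188), that of *nup153.L* was at 0.09 (adjusted p = 0.734), and that of *pabpc1.S* at 0.09 (adjusted p = 0.784).

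This split held beyond the named genes, in a comparison made after the values were seen. Of the probe sets called higher whose gene had another probe set on the array, 177 were dimmer than the brightest other probe set of the gene and 67 were brighter. For the 177 dimmer ones, the brighter probe set was called higher in 18 cases (10.2% beside 4.15% of all probe sets), with a median change of 0.09. For the 67 brighter ones, the other probe set was called higher in 16 (23.9%), with a median of 0.18. Among the probe sets called lower the counts were 58 dimmer and 58 brighter, and the brighter probe set followed in 14 of the 58 (24.1%), with a median of -0.24, and the dimmer one in 10 (17.2%), with a median of -0.17. When all probe sets were ranked by mean intensity over all arrays, 53 of the dimmest 25% were called higher and 79 lower, beside 146 and 280 of the brightest 25% and 264 and 216 of the 25% next to them.

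Among the largest decreases were *eps8l3.S*, which encodes a relative of a regulator of actin, *nat8.6.S*, which encodes an acetyltransferase, and genes of ribosomal proteins. *Eps8l3.S* read 7.11 and 6.19 in **Nog** and 7.32 and 8.57 in **Ven**, so that clutch 4 carried the fall (-1.29, SE 0.373, adjusted p = 0.0542), and in clutch 3 alone it was at -0.21 and not called. *Nat8.6.S* read 8.32 and 9.10 against 9.38 and 10.17 (-1.07, SE 0.200, adjusted p = 0.00622). *Rps6.L* read 9.15 and 9.16 against 9.95 and 9.67 (-0.65, SE 0.122, adjusted p = 0.00572). *Rpl35.L* fell by 0.65 (adjusted p = 0.00904) by 1 of its 2 probe sets, and the other was not called. Of 68 ribosomal protein genes, picked out by symbol after the values were seen, 30 (44.1% beside 4.42%) were called lower and none higher, also at an unadjusted p below 0.05 in limma, with a median of -0.33.

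Gene length differed between the calls in either direction, and a measure of RNA quality differed between the **Nog** and **Ven** arrays. The genomic span of a gene on the Xenopus_laevis_v10.1 assembly, introns included, had a median of 24.8 kb for genes called higher, 8.56 kb for genes called lower and 17.3 kb for all genes with 1 symbol. The array carries probe sets at the 5′ and 3′ ends of 4 control transcripts, 3 actins and a glyceraldehyde phosphate dehydrogenase. The 5′ minus 3′ difference, averaged over these 4, was 0.58 (clutch 3) and 0.61 (clutch 4) in **Nog** and 0.31 and 0.22 in **Ven**, and it was higher in **Nog** for each of the 4 transcripts in both clutches. It was close to the **Nog** values in **Dkk** (0.50 and 0.64), for which 69 probe sets were called against **Ven** (0.445%), and in **Nog+Dkk** (0.47 and 0.66), for which 712 were (4.6%). The part of these differences in the calls of ribosomal protein genes and of dim probe sets was not tested.

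**Figure D4:**
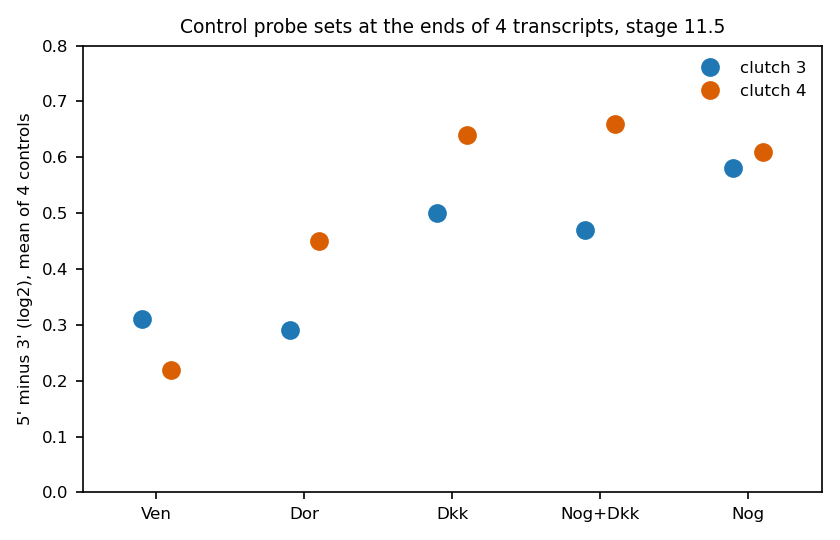
Log2 difference between the 5′ and 3′ probe sets, as the mean of 4 control transcripts, on each stage 11.5 array by condition, with clutch 3 in blue and clutch 4 in orange. The **Nog** arrays sit at 0.58 and 0.61 and the **Ven** arrays at 0.31 and 0.22.

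**Nog** was next compared directly with **Nog+Dkk**, without **Ven**, to ask what Dkk-1 adds to Noggin. Far fewer probe sets were called, 32 higher and 70 lower in **Nog** (0.658% of those tested). Of the 36 organizer genes 13 were lower in **Nog** (36.1% beside 0.452% of all probe sets), and none was higher, beside 20 and 1 at an unadjusted p below 0.05 in limma. Among the 13 is *dkk1.S*, which was injected. *Crx.L*, a homeobox gene of the anterior neural ectoderm related to *otx*, was at 8.66 and 8.94 in **Nog** and 10.18 and 10.40 in **Nog+Dkk** (-1.49, SE 0.125, adjusted p = 9.5e-06). *Otx2.S*, a homeobox gene of the head, was at 7.31 and 7.92 in **Nog** and 8.93 and 9.62 in **Nog+Dkk** (-1.66, SE 0.195, adjusted p = 0.000342). For both genes the groups did not overlap.

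*Hes7.1.L* had the same order (-1.68, adjusted p = 0.000342), as did the BMP ligand gene *admp.S* (-1.52, adjusted p = 0.00200), *fzd8.S*, a Wnt receptor gene of the head organizer (-1.26, adjusted p = 0.00413), *lhx1.L* (-0.63, adjusted p = 0.0525) and *lrig3.S* (-0.86, adjusted p = 0.0416). Among the trunk genes, *foxd4l1.1.S* (-0.98, adjusted p = 0.0205), *foxd3.L* (-0.97, adjusted p = 0.0710) and *foxa4.L* (-0.61, adjusted p = 0.0425) were lower in **Nog** too. *Fzd7.L* was not called, with a difference of 0.32 (adjusted p = 0.857) by the probe set with the largest rise over **Ven**, nor was *nog.L* (-0.11, adjusted p = 0.893).

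Most called Wnt targets and posterior genes ran the other way. Of 34, 7 were higher in **Nog** than in **Nog+Dkk** (20.6% beside 0.207%) and 2 lower (5.88% beside 0.452%). *Kremen2.S*, which encodes a Dkk receptor, was at 4.69 and 5.14 in **Nog** and at 3.76 in both **Nog+Dkk** arrays (1.15, SE 0.162, adjusted p = 0.00200). *Fzd10.S*, a Wnt receptor gene (1.04, adjusted p = 0.0347), *axin2.L* (0.89, adjusted p = 0.0584) and *hoxc6.S* (0.83, adjusted p = 0.0525) were higher as well. The 2 lower genes were the *cyp26a1* homeologs. Of the BMP targets, *evx1.L* (0.73, adjusted p = 0.0832), *msx2.L* (0.95, adjusted p = 0.0710), *msx1.L* (1.04, adjusted p = 0.0563) and *msx1.S* (0.93, adjusted p = 0.00955) were higher in **Nog**, whereas *szl.S* (0.27, adjusted p = 0.919) and *szl.L* (0.06, adjusted p = 0.991) were not called.

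Against **Ven**, the changes in **Nog**, **Nog+Dkk**, **Dkk** and **Dor** can be set side by side, although all 4 share the **Ven** arrays. For *szl.S* they were -1.52, -1.80, -0.22 and -2.16, and for *evx1.L* -1.01, -1.75, -0.57 and -1.98. For *ventx1.1.L* they were -0.63, -1.12, -0.73 and -1.21. *Otx2.S* changed by 0.31, 1.97, 1.07 and 2.47, and *crx.L* by -0.10, 1.39, 0.67 and 1.91. *Kremen2.S* changed by 0.11, -1.04, -0.84 and -1.13. *Hes7.1.L* was below **Ven** in **Nog** and above it in **Nog+Dkk** and **Dor**, with -0.92, 0.75, -0.14 and 1.96.

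**Figure D5:**
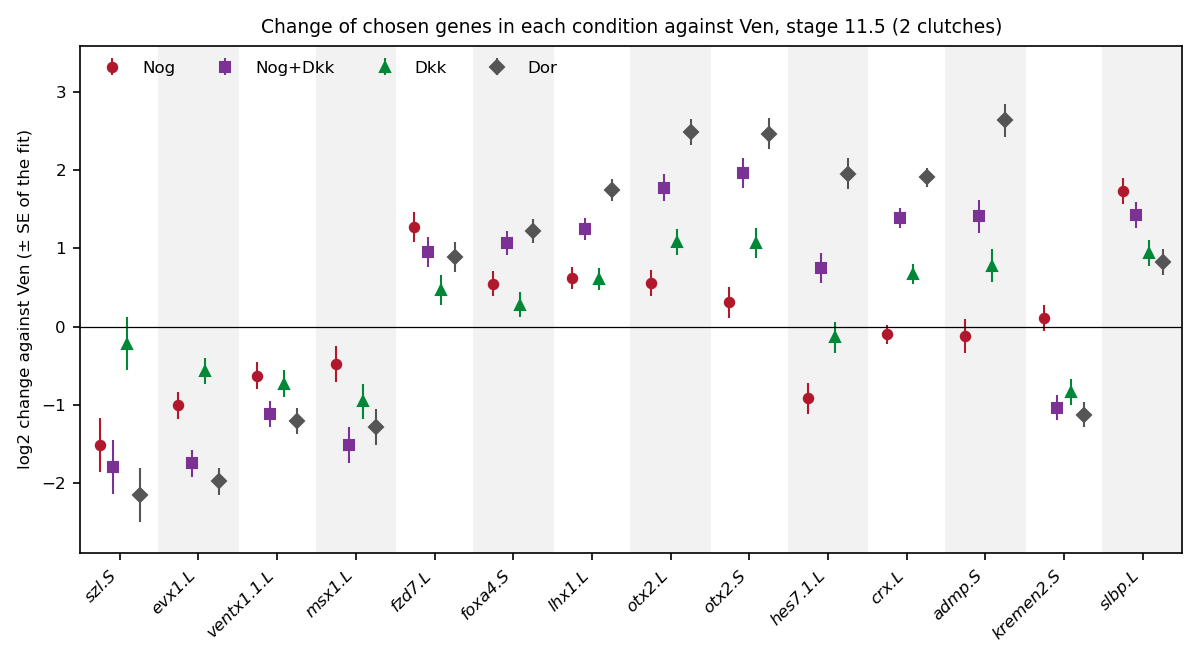
Log2 change against the shared **Ven** arrays for 14 genes in **Nog** (circles), **Nog+Dkk** (squares), **Dkk** (triangles) and **Dor** (diamonds) at stage 11.5, with the SE of the fit as bars. *Szl.S* sits at -1.52 in **Nog** and -1.80 in **Nog+Dkk**, whereas *otx2.S*, *crx.L*, *admp.S* and *kremen2.S* lie between -0.12 and 0.31 in **Nog** and at 1.97, 1.39, 1.41 and -1.04 in **Nog+Dkk**.

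In the direct comparison with **Dor**, the explant with the endogenous organizer, 447 probe sets were higher and 604 lower in **Nog** (6.78%). Of the 36 organizer genes 28 were lower in **Nog** (77.8% beside 3.90%), among them *frzb2.L* (-2.67), *admp.S* (-2.76), *fzd8.S* (-2.65), *gsc.L* (-2.39) and *otx2.S* (-2.15). *Fzd7.L* stood at 0.37 (adjusted p = 0.330) and *szl.S* at 0.64 (adjusted p = 0.359), and neither was called. Of 34 Wnt targets and posterior genes 12 were higher in **Nog** (35.3% beside 2.89%), including the caudal genes *cdx1.S* (1.27, adjusted p = 0.00139) and *cdx4.L* (1.31, adjusted p = 0.00931). Another 4 of the 34 were lower (11.8% beside 3.90%). Of 29 paraxial and trunk mesoderm genes 11 were higher (37.9% beside 2.89%), for example *msgn1.L* (0.79) and *wnt8a.L* (0.73), and 3 were lower (10.3% beside 3.90%).

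The change in **Nog** at stage 11.5 was also set against that at stage 10, which was measured in other clutches. A difference between stages can therefore not be separated from one between clutches. The difference was called for 86 probe sets upward and 155 downward (1.56%). *Evx1.L* had 4.02 and 4.02 in **Nog** and 3.77 and 4.34 in **Ven** at stage 10, low levels at which the change was -0.04, and the difference of the changes was -0.98 (SE 0.243, adjusted p = 0.0811). *Szl.S* changed by 0.01 at stage 10, and its difference of -1.53 was not called (SE 0.485, adjusted p = 0.156). *Fzd7.L* read 9.03 and 10.42 against 9.10 and 10.32 at stage 10, a change of 0.01, and the difference was 1.25 (SE 0.273, adjusted p = 0.0643). In the other direction *aplnr.S*, which encodes the apelin receptor, read 8.82 and 7.67 in **Nog** against 7.47 and 5.6 in **Ven** at stage 10 (1.71, adjusted p = 5.06e-05, 1 of the 0.116% of probe sets higher at that stage) and was at -0.06 at stage 11.5. The study places this gene in a group raised at stage 10 in all plasmid-injected conditions (**Nog**, **Nog+Dkk** and **Dkk**), so the rise was not particular to **Nog**. The *aplnr.S* difference was -1.77 (SE 0.236, adjusted p = 0.00485). These calls depended on the clutches used: without clutch 1 or without clutch 2, 1 and 0 probe sets were called, with 2047 at an unadjusted p below 0.05 in limma without clutch 2.

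Transcripts that change between the stages were taken from **Dor**, which shares no array with **Nog** and **Ven** but came from the embryos of **Ven**. From stage 10 to 11.5, 26.8% of all probe sets rose and 32.5% fell in **Dor**. As the stages come from different clutches, such shares include differences between clutches, which the spread of the fit leaves out. The 956 probe sets that rose at least 2-fold had a median **Nog** minus **Ven** change of -0.18 in clutch 3 and 0.18 in clutch 4. Those that fell, 1137 in number, had medians of 0.06 and -0.08. In stage-rising transcripts **Nog** thus read below **Ven** in clutch 3 and above it in clutch 4. When the transcripts were taken from **Nog+Dkk** instead, where 24.5% of all probe sets rose and 34.8% fell, the medians of the rising ones were -0.15 and 0.20. The part of this in the differences between the clutches was not tested.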

How the data were processed

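Expression was measured on Affymetrix *Xenopus laevis* arrays, 20 in all, 1 for each of 5 conditions, 2 stages and 2 clutches per stage. The authors summarised the probes with RMA (background correction, quantile normalisation and a summary over probes), and the deposited intensities are linear. The study describes log2 values, so log2 of the deposited intensity was taken here. RMA compresses differences of dim probe sets, and quantile normalisation removes any overall shift between arrays. The array medians lay between 6.65 and 6.9.

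Of 15611 probe sets 120 controls were left out, and 15491 were tested. Of these, 9304 had 1 gene symbol in the platform annotation, 195 several and 5992 none. Probe sets of a gene or of its L and S homeologs may share signal. limma 3.58.1 in R 4.3.3 fitted 10 groups, with clutch as a block within stage, to all 20 arrays, which left 8 residual degrees of freedom. The spread is thus shared by all conditions and both stages. Calls used a Benjamini-Hochberg adjusted p below 0.1 over all probe sets. The samples of a clutch number share a clutch by the labels, and the deviations of **Nog** and **Ven** from their groups correlated at 0.485. For 2 of the stage 10 arrays the labels conflict on the clutch. A clutch pools 10 embryos per sample, so p-values describe the spread between pools.

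A gene list is represented by the probe set of each gene with the highest mean intensity. Named genes were the injected ones, up to 15 with the largest change in each direction, each called list member, up to 4 further members per list by size of change, and genes the study names. A few others were added, chosen after their values were seen, as were the ribosomal, gene span and same-gene comparisons and the list counts by clutch. The comparison, members and lists were chosen with earlier results of these data known. Alternatives were other sample sets, blocks, normalisations, filters and thresholds, and rank products. Figures were drawn with matplotlib 3.10.9.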

Additional observations from a re-analysis of the deposited data

Results flagged for a closer look

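The **Nog** minus **Ven** change at stage 11.5 differed from that at stage 10, by limma's test of the difference, for 241 probe sets. The named genes with a larger change at stage 11.5 were *slbp.L* (difference 1.62), *fzd7.L* (1.25), *hells.L* (1.07), which encodes a chromatin remodeller, *sptan1.L* (1.05), a spectrin gene, *grip2.L* (1.05) and *fam135a.S* (1.03). Those with a smaller or more negative change were both apelin receptor homeologs, *aplnr.S* (-1.77) and *aplnr.L* (-1.32), the ectoderm forkhead gene *foxi1.L* (-1.52), *nat8.6.S* (-1.43), the p53 target *ccng1.L* (-1.29) and *hes7.1.L* (-1.09). Each stage has its own clutches, and the stage 10 arrays with conflicting clutch labels, a **Dkk** and a **Nog+Dkk** array, enter through the shared clutch block. As **Ven** held no plasmid at either stage, plasmid DNA and Noggin cannot be told apart in these differences either.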

How the results depend on the processing

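Counts are for **Nog** against **Ven** higher and lower (643 and 685 in limma with the clutch as a block), **Nog** against **Nog+Dkk** (102), **Nog** against **Dor** (1051) and the stage difference (241). The samples of a clutch are paired. With no replicate block the counts were 0, 0, 0, 50 and 0, with 440, 427, 241, 788 and 437 at an unadjusted p below 0.05, and none of 41 named genes was called. Stage 11.5 alone gave 336, 253, 26 and 442, **Nog** and **Ven** of stage 11.5 alone 205 and 40 and rank products 62 and 10. In stage 11.5 alone 336 of the 15491 probe sets were called higher, beside 643 in the fit of all arrays. Of the lists, 2 of 33 Wnt reception and convergent extension genes were then called higher, beside 6 in the fit of all arrays. For BMP ligand, receptor and Smad genes it was 3 of 21, beside 5, and for germ plasm genes 2 of 16, beside 5. Each was still a larger share than that of all probe sets in the same fit. At an adjusted p below 0.05 the counts were 414, 347, 60, 556 and 13. The stage difference moved most, to 16 without the 2 arrays of conflicting clutch labels, 429 with trend and robust, 403 without the dimmest 25% of probe sets, 103 with cyclic loess, and between 0 (without clutch 2, with 2047 at an unadjusted p below 0.05) and 1191 (without clutch 4) with a clutch left out. Without clutch 3, 16 of the 41 named genes were no longer called, and without clutch 4 10, and none changed sign. With trend and robust *szl.S*, *germes.L* and *eps8l3.S* were no longer called. The median of stage-rising transcripts was 0.00 when defined on **Dor** and 0.03 on **Nog+Dkk**. With 2 arrays per group, changes of dim probe sets are the least certain. The probe sets of *szl.S*, *szl.L* and *hoxa7.L* were among the dimmest 25%.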

Other observations

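The following shares of list members called in **Nog** against **Ven** at stage 11.5 stand beside 4.15% of all probe sets higher and 4.42% lower. Of 15 p53 targets *plk3.S*, a stress-responsive kinase gene, rose (6.67%), from 4.78 and 5.5 in **Ven** to 5.42 and 6.05 in **Nog** (0.59, adjusted p = 0.0264). Of 17 immediate early and stress genes, *hsp70.L*, a heat shock protein gene (0.38, adjusted p = 0.0558), and *dusp6.L*, a feedback inhibitor gene of the FGF and MAP kinase pathway (0.37, adjusted p = 0.0588), rose (11.8%), and *ier2.S* fell (-0.54, adjusted p = 0.0211), 5.88% of the list. Of 11 innate immune genes, the kinase genes *jak2.L* (0.40, adjusted p = 0.0342) and *tyk2.L* (0.46, adjusted p = 0.0587) rose (18.2%). In clutch 4 alone 1 of the 11 was called higher, and in clutch 3 alone none was.

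Of 34 nuclear pore and import genes *nup210.L* (0.67, adjusted p = 0.00639) and *nup58.L* (0.44, adjusted p = 0.0411) rose (5.88%), and of 21 histone and histone mRNA genes *npm2.L*, the gene of an egg histone chaperone (-0.50, adjusted p = 0.0175), and *h2az2.S*, a histone variant gene (-0.42, adjusted p = 0.0272), fell (9.52%). Of 34 genes of mRNA binding and translation *eif3a.S* and *elavl1.S* (0.35, adjusted p = 0.0754) rose (5.88%) and *lsm14b.L* fell (-0.37, adjusted p = 0.0345), 2.94% of the list. In clutch 4 alone 6 of these 34 were called higher (17.6% beside 5.98% of all probe sets), and in clutch 3 alone 1 (2.94% beside 3.54%). In the paraxial and trunk mesoderm list *fgf8.L*, which encodes a growth factor of the blastopore margin, read 8.34 and 8.1 in **Nog** and 8.01 and 7.79 in **Ven** (0.32, adjusted p = 0.0913). Of 13 housekeeping genes 1 fell, the ribosomal protein gene *rps13.L* (-0.49), 7.69% of the list.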
